A study of Mus musculus with 6 samples.

Results

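Aldehyde dehydrogenases and the receptors of retinoic acid were examined in haematopoietic stem cells of mouse bone marrow. The set holds 10 genes, Aldh1a1, Aldh1a2, Aldh1a3, Aldh1a7, Aldh2, Rara, Rarb, Rarg, Rxra and Cyp26b1. Every probe set to which the platform table gives exactly 1 of these symbols was taken, without regard to its values, which made 19 of the 45101 probe sets on the array. A probe set is a group of short oligonucleotides read together as 1 value for a transcript. RNA was hybridised to 6 Affymetrix arrays, 3 from mice labelled Lrg-47-/- and 3 from wild-type mice. Lrg-47 is the older name of Irgm1, a GTPase that interferons induce, and the series text compares the stem cells with and without it. All mice were C57BL/6 and 8 to 12 weeks old, were kept free of specific pathogens and received no treatment named in the labels. Cells of both groups were sorted as the side population, which pumps out the dye Hoechst, and stained for lineage antigens, c-kit and Sca-1. The labels give neither the deleted part of Lrg-47 nor the number of mice behind an array, so the p-values measure the spread between these arrays, which may be technical.

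Retinol is oxidised to retinaldehyde by retinol dehydrogenases such as Rdh10, and Aldh1a1, Aldh1a2 and Aldh1a3 oxidise retinaldehyde to retinoic acid. Retinoic acid binds the receptors Rara, Rarb and Rarg, which pair with Rxra or its relatives on DNA, and Cyp26 enzymes degrade it. Aldehyde dehydrogenase activity is widely used to enrich blood stem cells, Rarg is known for its part in their maintenance, and the mitochondrial enzyme Aldh2 clears acetaldehyde.

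Aldh1a1 and Aldh1a7 are neighbouring paralogues, with 0 protein-coding genes of the RefSeq table between them, and Aldh1a1 read above the level of no signal while Aldh1a7 did not, so the sequences before their starts are shown. The table holds windows for 8 of the 10 genes, 14 in all, and the 250 bases before each start were used. RefSeq gives these sequences on build GRCm38.p6, 5′ to 3′ on the gene's own strand: Aldh1a1 at chr19:20601718-20601967 on the plus strand, Aldh1a7 at chr19:20727557-20727806 on the minus strand. Capitals mark the longest run the windows share.
Aldh1a1: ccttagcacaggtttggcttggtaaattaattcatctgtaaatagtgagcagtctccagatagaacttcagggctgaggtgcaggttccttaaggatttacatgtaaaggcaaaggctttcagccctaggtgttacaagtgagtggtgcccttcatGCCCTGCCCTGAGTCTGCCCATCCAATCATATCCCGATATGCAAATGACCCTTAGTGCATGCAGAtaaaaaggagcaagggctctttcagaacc
Aldh1a7: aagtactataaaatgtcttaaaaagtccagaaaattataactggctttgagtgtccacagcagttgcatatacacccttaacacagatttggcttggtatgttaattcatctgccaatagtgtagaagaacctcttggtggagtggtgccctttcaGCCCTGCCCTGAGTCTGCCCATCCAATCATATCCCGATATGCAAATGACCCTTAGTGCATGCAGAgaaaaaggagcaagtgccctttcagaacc
The shared run is 65 bases long, ends 29 bases before either start and occurs in 2 of the 32851 windows of the table, those shown. Of the 100 bases next to the start, 94 are identical without gaps. The run holds the octamer ATGCAAAT, found on either strand in 1.6% of all windows, and the box CCAAT, found in 33.8%. The other Aldh1a1 window in the table, before an upstream start, shares no run longer than 8 bases with that of Aldh1a7. Rarb is known for a retinoic acid response element before its start, through which the hormone induces its own receptor, and its window is shown for that reason, at chr14:16575477-16575726 on the minus strand, with capitals on the letters GTTCA, which end each copy of that direct repeat and were chosen after the window was read.
Rarb: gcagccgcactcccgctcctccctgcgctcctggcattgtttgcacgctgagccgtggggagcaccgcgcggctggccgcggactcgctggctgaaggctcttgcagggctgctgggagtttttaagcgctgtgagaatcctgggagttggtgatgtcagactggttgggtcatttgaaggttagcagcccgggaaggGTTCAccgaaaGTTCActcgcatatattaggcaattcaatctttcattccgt
The letters occur 2 times on the gene's strand and 0 times on the other, and the second copy ends 36 bases before the start. Searched on both strands, GTTCA was in 2 of the 14 member windows, 1 of Rara and this one, against 30.5% of all windows. A match or its absence describes these letters only.

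Values are the authors' log2 expression values, on which a difference of 1 is a doubling. Array medians lay between 3.67 and 3.73. Irgm1 itself, read by a single probe set, was at 7.68, 8.58 and 7.84 on the arrays labelled Lrg-47-/- and at 8.39, 8.57 and 8.36 in wild type, and since the deleted part is unknown this does not check the genotype. The highest bacterial control probe set, which mouse RNA should not fill, lay between 3.00 and 3.18 and served as the level of no signal. Of the stem cell markers Kit, Procr, Meis1, Mecom and Hlf, each was well above it on every array.

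The member probe sets fell mostly into a group with signal and a group without, and Rarg and Rxra had probe sets in both. Of the 19 probe sets, 8 lay above the highest control on every array, 9 at or below it on every array and 2 above it on some arrays. Only probe sets above the array median on at least 3 of the 6 arrays entered the test, which 8 probe sets of 4 genes met, those of Aldh1a1, Aldh2, Rarg and Rxra. The other 11 probe sets were not tested, and 6 genes, Aldh1a2, Aldh1a3, Aldh1a7, Rara, Rarb and Cyp26b1, had no tested probe set. Limma's test, with Benjamini-Hochberg adjustment over all 22580 probe sets tested, called 0 of the 8 at an adjusted p under 0.05, where it called 1.39% of all, 0.664% higher and 0.722% lower. At an unadjusted p under 0.05 it gave 1 of the 8, Aldh1a1, which was higher, against 16.4% of all tested probe sets in either direction and 7.52% higher. The groups did not overlap for 1 of the 8, again Aldh1a1, against 22.6% of all tested probe sets, 11.5% higher and 11.0% lower.

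Aldh1a1, the cytosolic retinaldehyde dehydrogenase, was at 12.37, 13.15 and 12.26 on the arrays labelled Lrg-47-/- and at 11.47, 11.45 and 10.91 in wild type. Every array labelled Lrg-47-/- lay above every wild-type array, with replicate 2 the highest of the 6 and wild-type replicate 3 the lowest. The means were 12.59 ± 0.48 and 11.28 ± 0.32 (SD, n = 3 each), a log2 difference of 1.31 with a 95% interval from 0.70 to 1.93, or 2.48-fold. In the limma fit its SE was 0.26 and its adjusted p 0.0681, so it missed the threshold. It passed when the filter on dim probe sets was raised to the 70th percentile (adjusted p = 0.0202) and with array weights (1.38, adjusted p = 0.0274), and its adjusted p ran from 0.0202 to 0.165 over the alternatives. At an adjusted p under 0.1 it counted among the 1.39% of tested probe sets called higher. In a sorted population, more cells that express a gene and more RNA per cell cannot be told apart.

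Summed levels of 4 marker lists also did not overlap between the groups, 2 higher and 2 lower on the arrays labelled Lrg-47-/-. Over all named genes on the array, 9.29% were higher and 7.28% lower without overlap. Of 16 T and NK cell markers on the array, 11 were higher on every array labelled Lrg-47-/- than on any wild-type array, and their summed level lay between 13.22 and 14.32 against 9.003 to 9.986 on the log2 scale. Limma called 5 of the 9 that were tested, all higher. Sums of linear values weigh the brightest markers most. The brightest here on the arrays labelled Lrg-47-/- was Ccl5, at 12.81, 12.77 and 13.52 against 8.69, 7.33 and 8.29. Cd3e was at 4.77, 4.68 and 6.56 against 4.47, 4.66 and 4.58, without overlap. Values of Cd8a were 3.74, 3.81 and 6.21 against 3.76, 3.71 and 3.66, with overlap. Cd4, Ncr1 and Prf1 of that list were at or below the controls on every array. Of 7 megakaryocyte and platelet markers 4 were higher without overlap, with a summed level of 11.53 to 11.74 against 9.98 to 10.38, and Gp6 was at or below the controls throughout. Limma called 1 of the 5 tested, which was higher. Of 13 stem cell markers 6 were lower and 1, Slamf1, was higher without overlap, the other 6 overlapped, and their summed level was 15.14 to 15.33 against 15.53 to 15.69. Limma called 0 of these 13, with 1 higher and 7 lower at an unadjusted p under 0.05. Replicate 2 labelled Lrg-47-/- was the highest array for Aldh1a1. In its group it had the lowest sums of T and NK cell (13.22), neutrophil (10.01), dendritic cell (7.74) and stromal markers (8.61). Its sums were the highest of the group for megakaryocyte (11.74), stem cell (15.33) and monocyte markers (11.76), and in between for B cell and erythroid markers. The summed levels of the monocyte, neutrophil, erythroid, B cell and stromal markers overlapped between the groups. Of 8 monocyte markers 3 were higher and 1 lower without overlap, and of 9 neutrophil markers 1 was higher. Of 10 stromal markers 2 were higher and 1 lower without overlap, and limma called 1 of the 4 tested, Col1a2, which was lower. The summed level of dendritic cell markers was lower, at 7.74 to 8.51 against 8.94 to 9.33. Of these 7 markers 1, Flt3, was lower and 1 higher without overlap, and limma called 0 of the 2 tested. Flt3 was at 7.63, 7.21 and 8.23 against 9.14, 8.90 and 8.74. It was the brightest marker of this list and made up most of the sum on every array, so the sum mainly reads Flt3. Batf3, Cd209a and Xcr1 were at or below the controls throughout. What part cells that carry markers of any of these lists had in the level of Aldh1a1 was not tested.

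**Figure D1:**
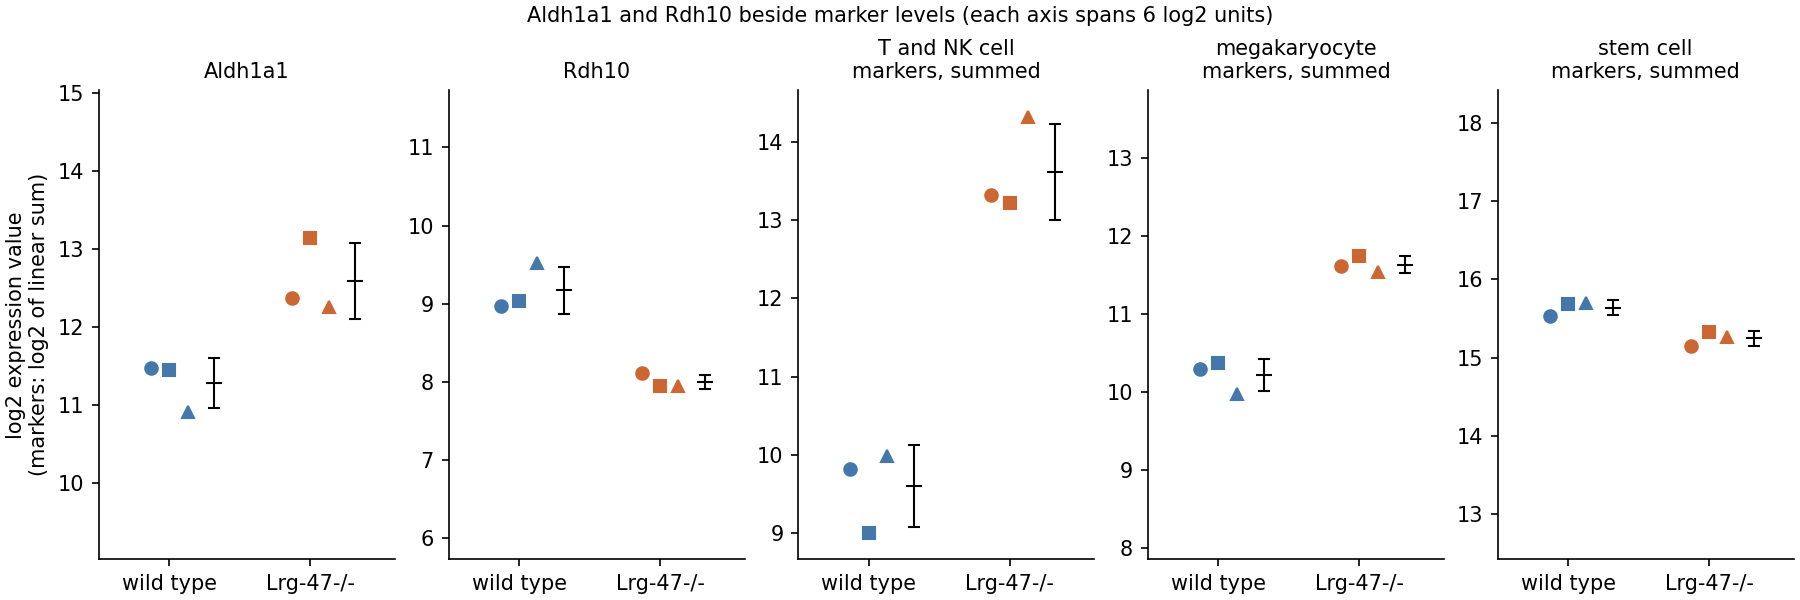
Log2 expression values of Aldh1a1 and Rdh10 and the log2 of summed linear values of 3 marker lists, by group. Circles, squares and triangles are replicates 1, 2 and 3, the bar is the mean ± SD of 3 arrays, and each axis spans 6 log2 units. Aldh1a1 and the summed T and NK cell and megakaryocyte markers were higher, and Rdh10 and the summed stem cell markers lower, on every array labelled Lrg-47-/- than on any wild-type array.

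The 4 genes whose pattern over the 6 arrays was most like that of Aldh1a1 were found among 10373 other tested genes by the smallest root mean square distance after each gene was centred on its mean. They were Gm4951, at a distance of 0.19, Slamf1 at 0.20, Parm1 at 0.20 and Cracd at 0.22. Gm4951 belongs to the interferon-inducible GTPases and Slamf1 is the stem cell surface marker CD150. Gm4951 was at 9.13, 9.55 and 9.09 on the arrays labelled Lrg-47-/- and at 7.99, 7.97 and 7.18 in wild type. Slamf1 was at 7.22, 7.98 and 6.71 against 6.25, 6.15 and 5.23. These genes were picked for their likeness, so their differences are a description only.

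The probe sets of the close relatives of Aldh1a1 gave no signal above the controls. Aldh1a7 was at 2.94, 2.94 and 2.89 on the arrays labelled Lrg-47-/- and at 2.88, 2.91 and 2.88 in wild type. All 6 values lay below the highest control of their array, and the groups overlapped. Whether the oligonucleotides of the Aldh1a1 probe set also bind transcripts of Aldh1a7, was not tested. Aldh1a2, the main retinaldehyde dehydrogenase of the early embryo, was at 2.77, 2.76 and 2.70 against 2.68, 2.73 and 2.69. The 3 probe sets of Aldh1a3 ranged over the 6 arrays from 2.23 to 2.64. Without any filter on dim probe sets, the differences of Aldh1a2, Aldh1a3 and Aldh1a7 lay between 0.01 and 0.04, and limma's adjusted p for these 5 probe sets lay between 0.541 and 0.748.

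Rara, the receptor whose fusion drives acute promyelocytic leukaemia, was likewise at the level of the controls at its only probe set, with 2.31, 2.29 and 2.26 against 2.23, 2.31 and 2.25. Rarb was at 2.49, 2.98 and 2.45 on the arrays labelled Lrg-47-/- and at 2.42, 3.05 and 2.44 in wild type. Replicate 2 of either group stood above the other 4 arrays, and the groups overlapped, with means of 2.64 ± 0.30 and 2.64 ± 0.36 (SD, n = 3 each). None of its 6 values exceeded the highest control on its array. Cyp26b1, which degrades retinoic acid, was at 2.87, 2.85 and 2.81 on the arrays labelled Lrg-47-/- and at 3.33, 3.97 and 2.84 in wild type. Wild-type replicates 1 and 2 rose above the controls, while wild-type replicate 3 lay among the arrays labelled Lrg-47-/-. The difference of −0.53 had an exact 2-sided permutation p of 0.3, where the smallest that 3 arrays against 3 allow is 0.1, and without a filter limma gave an adjusted p of 0.541. Without wild-type replicate 2 the difference was −0.24, and without wild-type replicate 3 it was −0.80.

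**Figure D2:**
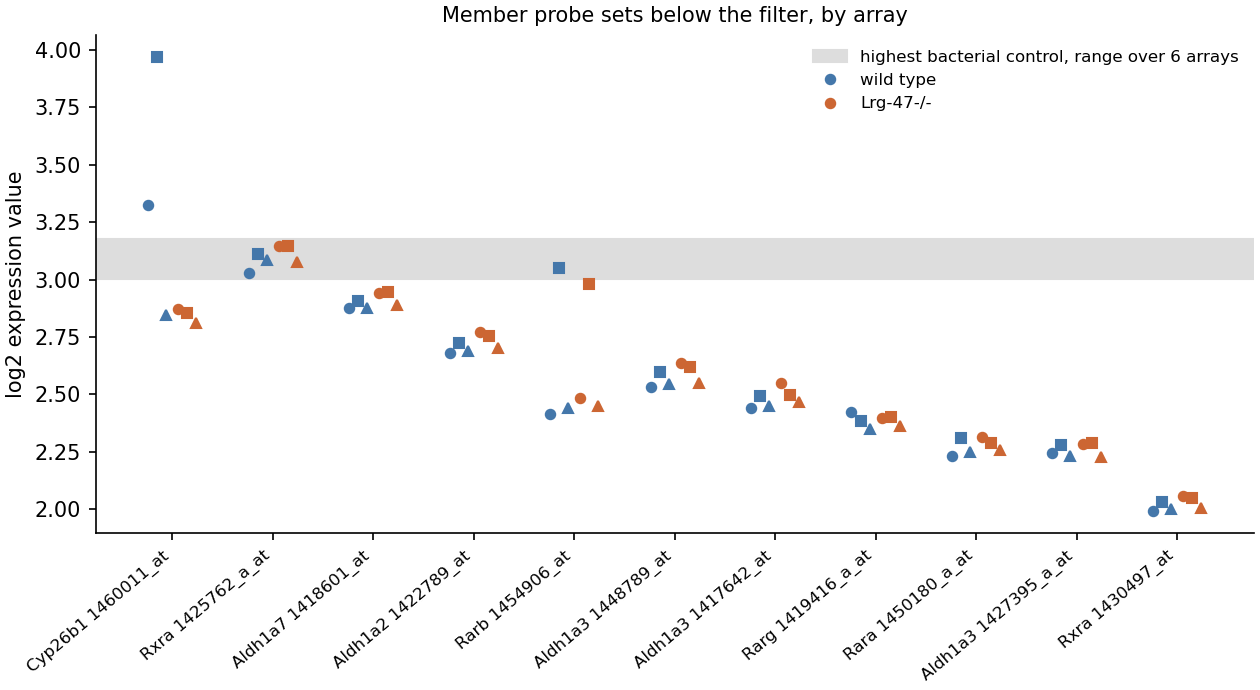
Log2 expression values of the 11 member probe sets that were not tested, ordered by their mean, with wild type in blue and Lrg-47-/- in orange. Circles, squares and triangles are replicates 1, 2 and 3, and the grey band is the range over the 6 arrays of the highest bacterial control probe set, 3.00 to 3.18. Only Cyp26b1, on 2 wild-type arrays, reached above the band, and Rarb was high on replicate 2 of both groups.

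The 9 member probe sets at or below the controls were set beside all others at that level. The members' median deviation from their own means was 0.04 and 0.03 on replicates 1 and 2 labelled Lrg-47-/- and −0.02 on replicate 3. In wild type it was −0.04 on replicate 1, 0.01 on replicate 2 and −0.03 on replicate 3. Over all 17176 probe sets at or below the controls on every array, the same deviations were 0.04, 0.03 and −0.02 against −0.04, 0.01 and −0.03. The median difference between groups was 0.03 over the 9 members and 0.03 over all such probe sets.

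Aldh2 was measured by 5 probe sets, which did not give a single answer. The 1 with the highest values, 1448143_at, was at 12.89, 13.05 and 13.13 on the arrays labelled Lrg-47-/- and at 12.99, 13.07 and 12.92 in wild type. All 6 arrays lay within 0.24 of each other, and the difference was 0.03 with a 95% interval from −0.21 to 0.27 (limma, adjusted p = 0.921).

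The probe set 1434987_at of Aldh2 was at 8.96, 8.30 and 8.59 on the arrays labelled Lrg-47-/- and at 6.93, 8.72 and 7.49 in wild type. The probe set 1434988_x_at, whose suffix marks oligonucleotides that may bind other transcripts, was at 9.60, 9.18 and 9.31 against 7.87, 9.45 and 8.36. These 2, whose numbers are consecutive, ordered the 6 arrays in the same way. Wild-type replicates 1 and 3 were lowest and wild-type replicate 2 lay among the arrays labelled Lrg-47-/-. Whether these 2 probe sets read the same stretch of transcript was not tested. Their differences were 0.90 (SE 0.43, limma adjusted p = 0.355) and 0.81 (SE 0.38, limma adjusted p = 0.343), with 95% intervals from −0.12 to 1.91 and from −0.08 to 1.69. Without wild-type replicate 2 they were 1.40 and 1.25, without wild-type replicate 1 they were 0.51 and 0.46, and neither passed in any alternative run.

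The 2 other Aldh2 probe sets differed in the opposite direction without passing. At 1437410_at the values were 9.27, 8.85 and 9.16 against 9.61, 9.27 and 9.01, a difference of −0.20 (limma, adjusted p = 0.67). At 1457155_at they were 5.63, 5.49 and 5.40 against 6.07, 6.38 and 5.05, a difference of −0.33 (limma, adjusted p = 0.669). In the latter, wild-type replicate 3 lay below all 5 other arrays, and the other wild-type replicates lay above the arrays labelled Lrg-47-/-. With single arrays left out, the first difference ranged from −0.35 without wild-type replicate 3 to −0.05 without wild-type replicate 1, and was −0.08 without replicate 2 labelled Lrg-47-/-. The second ranged from −0.72 without wild-type replicate 3 to −0.05 without wild-type replicate 2, and was −0.21 without wild-type replicate 1.

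Of the receptors, Rarg and Rxra each had 1 probe set with signal. Rarg was at 6.53, 6.68 and 6.46 on the arrays labelled Lrg-47-/- and at 7.40, 6.96 and 6.66 in wild type at 1419415_a_at. Only wild-type replicate 3 fell within the other group, just under its replicate 2, and the means were 6.56 ± 0.11 and 7.01 ± 0.37 (SD, n = 3 each). The difference of −0.45 had an SE of 0.23, a 95% interval from −0.98 to 0.08 and a limma adjusted p of 0.373. Without wild-type replicate 1 it was −0.25. Its second probe set, 1419416_a_at, lay at or below the controls on every array, from 2.35 to 2.42.

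Rxra, the shared partner of the receptors, was at 6.54, 6.57 and 6.83 on the arrays labelled Lrg-47-/- and at 6.63, 7.20 and 6.71 in wild type at 1454773_at. The groups overlapped and wild-type replicate 2 was the highest array. The difference was −0.20 with a 95% interval from −0.70 to 0.30 (limma, adjusted p = 0.69). Without wild-type replicate 2 it was −0.02, and without wild-type replicate 1 it was −0.31. Its 2 other probe sets ranged from 1.99 to 3.15, of which 1425762_a_at lay across the level of the controls and 1430497_at below it.

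**Figure D3:**
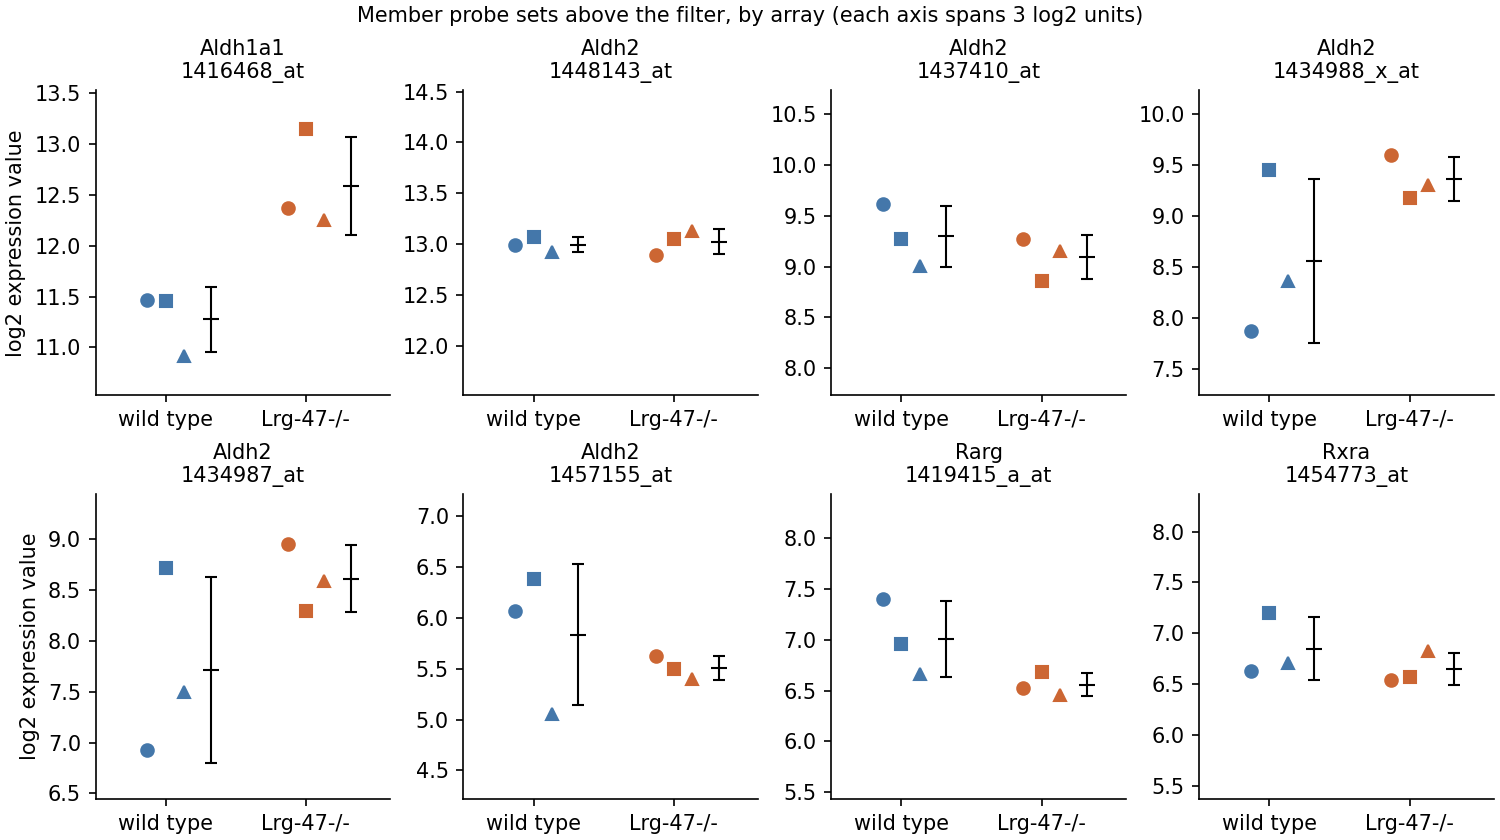
Log2 expression values of the 8 tested member probe sets on each array, by group. Circles, squares and triangles are replicates 1, 2 and 3, the bar is the mean ± SD of 3 arrays, and each axis spans 3 log2 units so that spreads can be compared. Only Aldh1a1 has groups that do not overlap, and in 1434987_at and 1434988_x_at of Aldh2 wild-type replicate 2 lies among the arrays labelled Lrg-47-/-.

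**Figure D4:**
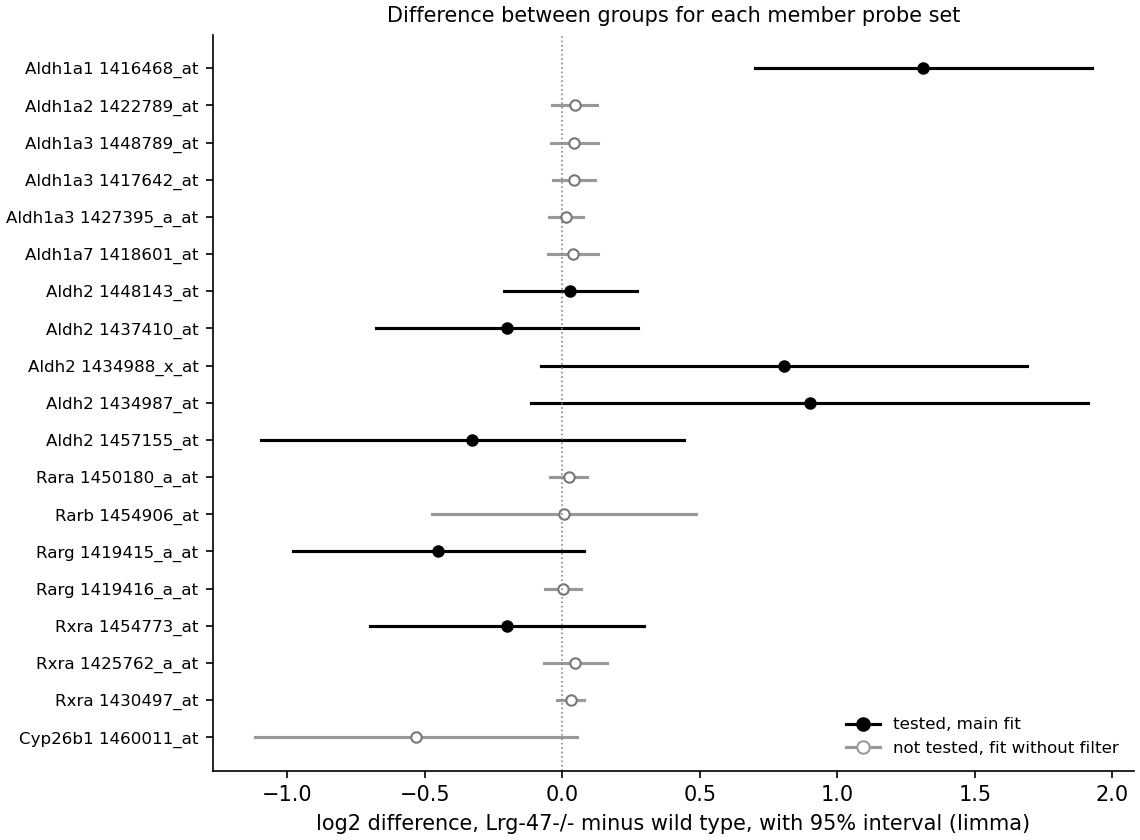
Log2 difference between groups, Lrg-47-/- minus wild type, with its 95% interval from limma, for all 19 member probe sets. Filled points are the 8 tested probe sets and open points the 11 untested ones, whose intervals come from the fit without a filter on dim probe sets. The interval of Aldh1a1, 0.70 to 1.93, is the only one that does not reach 0, before any adjustment for the number of probe sets tested.

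The other genes of the pathway were read from lists, with the brightest tested probe set standing for each gene. Of 113 such genes that are not members, 99 were on the array and 59 were tested. Limma called 0 higher and 1 lower, against 1.08% and 0.954% of all 10374 tested genes. At an unadjusted p under 0.05 there were 3 higher and 5 lower, or 13.6% in either direction, against 18.5% of all tested genes, of which 883 were higher and 1039 lower, the background for the counts at this threshold in the lists that follow. The groups did not overlap for 17 of the 59, or 28.8%, against 25.2% of all tested genes, and the median difference was 0.01 against 0.003.

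The gene called was Rdh10, which oxidises retinol to the retinaldehyde that Aldh1a1, Aldh1a2 and Aldh1a3 use. It was at 8.11, 7.94 and 7.94 on the arrays labelled Lrg-47-/- and at 8.96, 9.04 and 9.52 in wild type. Every array labelled Lrg-47-/- lay below every wild-type array. Rdh10 fell by 1.17 on the log2 scale (SE 0.19, limma adjusted p = 0.0393), from 9.17 ± 0.30 to 8.00 ± 0.10 (SD, n = 3 each). Its second tested probe set, 1426968_a_at, also lay lower without overlap, at 7.58, 7.57 and 7.37 against 7.63, 7.84 and 8.13, and did not pass (−0.36, limma adjusted p = 0.397). The call on Rdh10 was lost without any 1 array, where its difference lay between −1.28 and −1.002 and its adjusted p between 0.0641 and 0.133. It was also lost when all probe sets were tested (adjusted p = 0.0906), when the filter was lowered to the 25th percentile (adjusted p = 0.0683) and when the replicate number was a block (adjusted p = 0.138). The summed level of stem cell markers was lower, and those of T and NK cell and megakaryocyte markers higher, on the same 3 arrays, with the calls given beside Aldh1a1, and their part in the level of Rdh10 was not tested.

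In the list of retinol and retinaldehyde dehydrogenases and reductases to which Rdh10 belongs, 9 of 17 genes on the array were tested. Limma called 0 higher, 8 did not pass, and the median difference was −0.09. At a limma unadjusted p under 0.05, 0 were higher and 2 lower, Rdh10 among them. The groups did not overlap for 3 of the 9, 1 higher and 2 lower, against 25.2% of all tested genes. Of 15 other aldehyde dehydrogenases 8 were tested and limma called 0, with 0 higher and 1 lower at an unadjusted p under 0.05 and a median of −0.14. Aldh5a1, which acts in the breakdown of the transmitter GABA, was at 4.67, 5.03 and 5.62 against 5.67, 5.70 and 5.79, a difference of −0.62 (limma, adjusted p = 0.276), which was −0.40 without replicate 1 labelled Lrg-47-/-. Aldh3a2, which oxidises fatty aldehydes, was at 6.80, 6.72 and 7.15 against 7.29, 7.48 and 7.23, a difference of −0.44 (limma, adjusted p = 0.307). Neither gene's groups overlapped, and Aldh1a1 differed in the opposite direction to these 2. Over the list of 8 tested genes, 4 differences were above 0 and 4 below. The groups did not overlap for 4 of the 8, 1 higher and 3 lower, against 25.2% of all tested genes.

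Of 11 genes of retinoid uptake, storage and binding on the array, 10 lay at or below the controls on every array and 1 was tested, the fatty acid and retinoic acid carrier Fabp5, at 12.13, 12.15 and 12.00 against 11.92, 11.79 and 11.85 (0.24, limma adjusted p = 0.312). Its second tested probe set differed by −0.23, so the probe sets disagree in sign. Of 3 further retinoic acid hydroxylases and RXRs on the array only Rxrb was tested, at 9.67, 9.60 and 10.05 against 9.87, 9.81 and 9.22 (0.14, limma adjusted p = 0.802), and its difference ranged from −0.06 without wild-type replicate 3 to 0.26 without wild-type replicate 1, with 0.000675 without replicate 3 labelled Lrg-47-/- and −0.05 with array weights.

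Limma called 0 of 14 tested corepressors and coactivators of the receptors, of which 2 were higher and 0 lower at an unadjusted p under 0.05, with a median of 0.17. The coactivator Ncoa2 was at 10.01, 10.22 and 10.42 against 9.62, 9.64 and 9.27, a difference of 0.71 (limma, adjusted p = 0.114), while its 2 other tested probe sets differed by 0.17 and 0.01. Hdac3, the deacetylase of the corepressor complex, was at 7.77, 7.90 and 7.88 against 7.50, 7.40 and 7.04, a difference of 0.54 (limma, adjusted p = 0.223). Among 5 tested partner receptors of RXR limma called 0, with 0 at an unadjusted p under 0.05 in either direction and a median of −0.11. Nr4a2, an orphan receptor, differed by −0.34 at its brightest probe set (limma, adjusted p = 0.373), and by −0.17 there without wild-type replicate 1, while its 5 tested probe sets ranged from −0.34 to 0.32. The thyroid hormone receptor Thra differed by −0.18 at its brightest probe set (limma, adjusted p = 0.7), from −0.32 without replicate 1 labelled Lrg-47-/- to −0.09 without replicate 3 of that group, and was −0.10 without wild-type replicate 3. Its probe set 1454675_at was at 6.18, 6.26 and 6.79 against 6.94, 7.05 and 7.08, lower without overlap, and did not pass (−0.61, limma unadjusted p = 0.021, adjusted p = 0.221). The remaining probe set of Thra, 1426997_at, differed by 0.23 with overlap.

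Genes listed as induced by retinoic acid showed no call. Of 21 on the array 11 were tested and limma called 0, with 0 higher and 2 lower at an unadjusted p under 0.05 and a median of −0.08. Cebpb, a myeloid transcription factor, was at 8.76, 8.68 and 8.77 against 9.07, 9.10 and 9.11, a difference of −0.36 without overlap (limma, adjusted p = 0.264). Asxl1, a chromatin regulator, was at 11.07, 11.09 and 11.65 against 11.58, 11.71 and 11.89, a difference of −0.46 (limma, adjusted p = 0.284), with overlap, and its second tested probe set differed by −0.03. Rarb and Cyp26b1, members that are also targets, were not tested, nor were Cyp26a1, Stra6 and Crabp2 of this list. Whether each listed gene responds to retinoic acid in these cells was not tested.

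Aldh2 also belongs to the list of aldehyde detoxification and the Fanconi pathway, which repairs DNA crosslinks of the kind aldehydes leave. Of 17 genes on the array 14 were tested and limma called 0, with 1 higher and 0 lower at an unadjusted p under 0.05. The median was 0.15, and 11 of the 14 differences were above 0, against 50.5% of those of all tested genes. Fanca, a subunit of the pathway's core complex, was at 6.62, 6.51 and 7.77 against 5.70, 5.52 and 5.72, a difference of 1.32 without overlap (SE 0.33, limma adjusted p = 0.123). Replicate 3 labelled Lrg-47-/-, the array with the most T and NK cell marker signal, was its highest, and without that replicate the difference was 0.92. The part of T and NK cells in the level of Fanca was not tested. Fancc, of the same complex, was at 5.53, 5.15 and 5.74 against 6.04, 5.85 and 5.89, a difference of −0.45 (limma, adjusted p = 0.305), or −0.29 without replicate 2 labelled Lrg-47-/-. Its second tested probe set differed by 0.06 with overlap, so the probe sets disagree in sign.

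**Figure D5:**
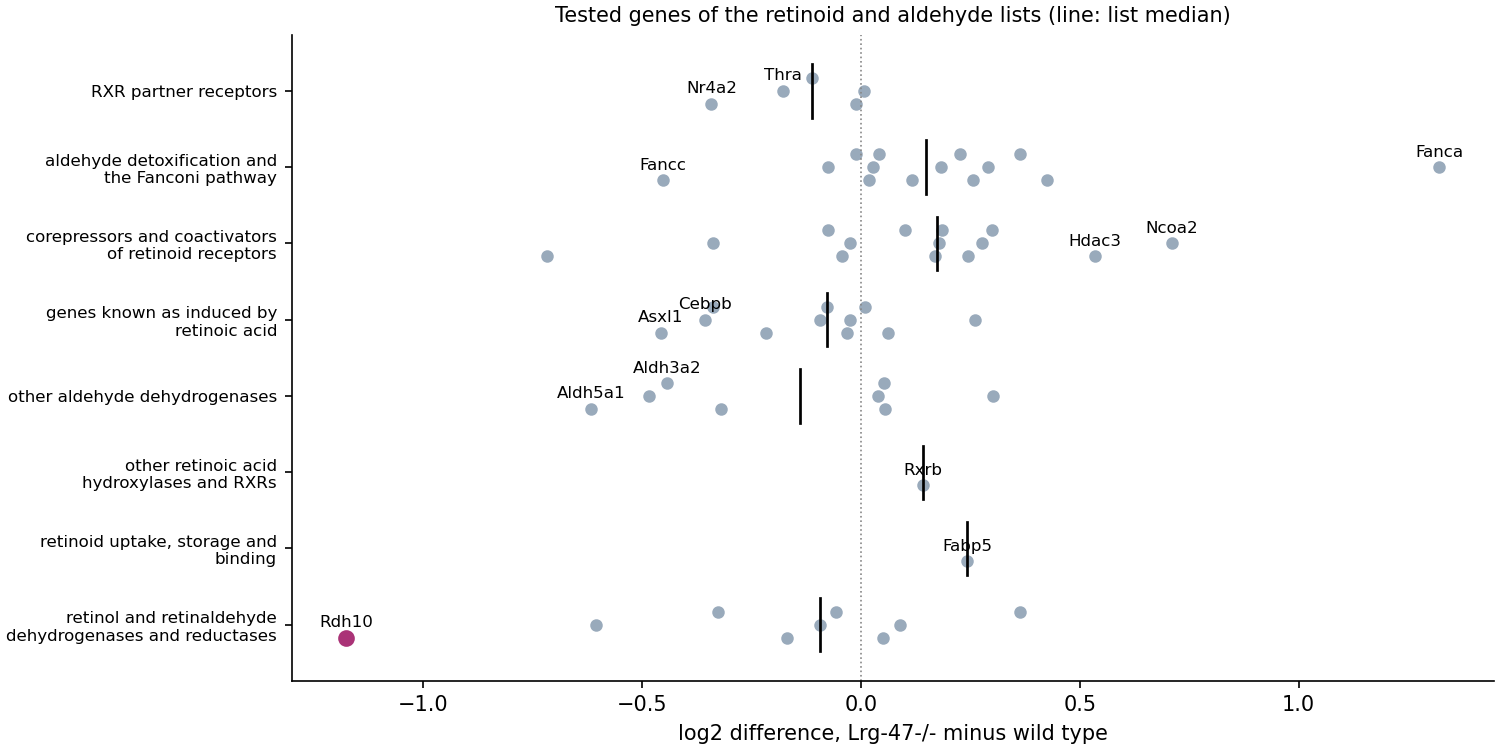
Log2 difference between groups, Lrg-47-/- minus wild type, of each tested gene in the 8 lists of retinoid and aldehyde genes, with a black line at each list's median. The purple point is Rdh10, the only gene past an adjusted p of 0.05, and the genes named in the text are labelled.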

How the data were processed

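The values the authors deposited are log2 expression values per probe set, produced by GCRMA according to the submitters' processing notes, whose version is not given in the sources used here. GCRMA corrects background from probe sequence and normalises between arrays, and the values themselves show the log2 scale. Per the labels' protocols, RNA was amplified in 2 rounds of T7 transcription, which favours 3' ends. On the log2 scale, 3' controls exceeded 5' controls by 2.57 to 3.56 for actin and 2.56 to 3.08 for Gapdh over the arrays. The part of probe position in the level of a probe set, or in its lack of signal, was not tested.

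The values were used as they stood, without a pseudocount. The test was limma 3.58.1 under R 4.3.3 (lmFit, eBayes with an intensity trend, 2-sided tests), over 22580 probe sets of 10374 named genes. The fit was also run on simulated data with independent noise at each probe set. Such data hold no effects shared by the probe sets of an array, so the run does not bear on them. Of 45101 probe sets, 34958 had 1 symbol, 932 had several and 9211 had none. Levels of different genes were not compared. The number of arrays, 3 a group, limits the precision.

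Named were all members, list genes past the threshold (at most 4 a list) or else the 2 of smallest p, and the 4 genes nearest to the member of smallest p. Marker genes and the control gene Irgm1 are named beside them. The members and lists were chosen with earlier results of these data known. Alternatives were other filters, normalisations, variance models and thresholds, a block for the replicate number, omission of each array, array weights, and gene medians over probe sets.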

Additional observations from a re-analysis of the deposited data

How the results depend on the processing

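Over all tested probe sets, 150 were higher and 163 lower. These counts were 49 and 54 without a filter, 62 and 64 when it was lowered to the 25th percentile, 401 and 463 with array weights, 27 and 41 with the replicate block, 314 and 315 at an adjusted p under 0.1, and from 17 to 138 and from 28 to 129 with any single array omitted. The count of members called higher was 0 and became 1, Aldh1a1, when the filter was raised to the 70th percentile, with array weights and at an adjusted p under 0.1, and it was 0 whichever 1 array was left out. The count of members called lower was 0 in all 16 alternatives. The count of list genes called lower was 1, Rdh10, and became 0 without a filter, at the 25th percentile, with the replicate block and with any 1 array left out (range 0 to 0), and list genes called higher stayed at 0. The difference of Aldh1a1 stayed above 0 in all 15 alternatives, from 1.03 to 1.48. The difference of Aldh2 at 1448143_at changed sign, to −0.014 with array weights, and ranged from −0.0246 to 0.094 with single arrays left out. That of Rxrb was −0.0511 with array weights and from −0.0649 to 0.26 with single arrays left out. The causes were not tested.

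Deviations of same-numbered arrays from their group means correlated at −0.109, −0.0179 and −0.276 over the tested probe sets. With so few arrays a group, these correlations cannot decide whether the replicate numbers pair the arrays. The replicate block changed no call of a member. The pseudocount for linear values was not run, since the values are on a log2 scale. Signal at the level of the controls limits the 9 member probe sets there, for which a fall could not be seen.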
